A study of Saccharomyces cerevisiae with 6 samples.

Results

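The 10 genes described here encode histones of the budding yeast Saccharomyces cerevisiae. They were taken by gene name from the 6416 rows of the deposited table. The 8 core genes are present as 2 copies each for H2A (HTA1 and HTA2), H2B (HTB1 and HTB2), H3 (HHT1 and HHT2) and H4 (HHF1 and HHF2). The others are HTZ1, which encodes the H2A variant H2A.Z, and HHO1, which encodes the linker histone H1. All 10 passed the filter on low values. RNA was sequenced from 6 samples of BY4741, a laboratory strain of mating type a, grown with galactose as the carbon source in synthetic complete medium. In 3 samples the cells expressed NdeltaCit1-DS/AA, and in 3 they expressed NdeltaCit1-DS/AA-H/G, here called DS/AA, with replicates numbered 1 to 3, and DS/AA-H/G, numbered 4 to 6. Both are forms of the mitochondrial citrate synthase Cit1 without the presequence that directs it to mitochondria, and the study asked what the accumulation of such a protein does to the cell. What the letters after each name stand for, how the forms were expressed and whether samples came from separate cultures is not said in the labels. The p-values therefore measure the spread between these libraries only, and it may be technical.

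Core histones form the octamer around which DNA is wrapped, and cells make most of them during S phase, when new DNA must be packaged. In budding yeast each core gene stands next to a partner on the opposite strand, and the 2 genes of such a pair are read outwards from a shared region that holds binding elements of the activator Spt10. The HIR complex and the chaperones Asf1 and Rtt106 repress most of these loci outside S phase. H2A.Z replaces H2A in nucleosomes near promoters, and Hho1 binds the DNA between nucleosomes. Neither is part of a divergent histone pair.

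The shared regions are shown because all 8 core genes are read from them. They are 646 to 817 bases long. Each line gives the plus strand of R64, read 5′ to 3′ from the RefSeq genome, with capitals marking matches to either of 2 motifs. One is a form of the Spt10 element, TTCC and TTCNC with 6 bases of any kind between them. The other is an older consensus for the histone upstream activating sequence, of 16 bases. Both were searched on both strands, and their matches do not overlap each other.
HTA1 and HTB1, chrIV:914927-915181: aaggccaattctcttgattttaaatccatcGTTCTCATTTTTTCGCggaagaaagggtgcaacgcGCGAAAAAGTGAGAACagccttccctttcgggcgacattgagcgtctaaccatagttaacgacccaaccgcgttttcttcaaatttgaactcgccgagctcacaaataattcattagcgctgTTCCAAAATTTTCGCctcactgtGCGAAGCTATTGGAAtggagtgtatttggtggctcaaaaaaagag
HTA2 and HTB2, chrII:236078-236152: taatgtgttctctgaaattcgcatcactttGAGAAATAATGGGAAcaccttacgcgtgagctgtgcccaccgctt
HHT1 and HHF1, chrII:255914-255988: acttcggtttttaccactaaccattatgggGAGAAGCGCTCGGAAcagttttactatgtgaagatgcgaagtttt
HHT2 and HHF2, chrXIV:576316-576390: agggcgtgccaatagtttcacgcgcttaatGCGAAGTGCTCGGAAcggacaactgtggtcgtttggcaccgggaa
The HTA1 and HTB1 region held 2 matches to the Spt10 form and 2 to the older consensus, and each of the other 3 regions held 1 match to the Spt10 form. In a window of 500 bases before the start codon, the Spt10 form was found for 8 of 8 core genes and for 182 of 6316 protein-coding genes (2.88%), and the older consensus for HTB1 alone (0.0158%). Partners share these regions, so the 8 windows are not 8 separate observations. Both motifs are known as elements of histone promoters, so the matches show where they lie and are no test of enrichment. HTZ1 and HHO1 had no match to the letters of either motif in that window. The Swi4 box CNCGAAA, which overlaps the older consensus in the HTA1 and HTB1 region, occurred in 21.7% of all windows and in those of 3 core genes, HTZ1 and HHO1.

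All 8 core histone genes and HHO1 were lower in DS/AA than in DS/AA-H/G, while HTZ1 did not pass the test. The falls were small, by 0.12 to 0.36 on the log2 scale for the core genes. HTA1, HTA2, HTB2 and HHF2 fell to between 0.779 and 0.796 of their DS/AA-H/G level. HTB1, HHT1, HHT2 and HHF1 fell to between 0.890 and 0.923. Here fell and rose mean a limma adjusted p under 0.05 (Benjamini-Hochberg over all 6197 genes tested), and 19.7% of tested genes fell and 22.1% rose by this measure. The median change was -0.25 over the core genes and 0.01 over all tested genes. Levels are scaled estimated counts, and a change is the log2(value + 1) of DS/AA less that of DS/AA-H/G. In bulk RNA, fewer cells that carry a transcript and less of it per cell cannot be told apart.

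The 6 libraries held 30277566 to 32702564 estimated reads each. The transcript counted as CIT1 itself stood at 522165 ± 23866 in DS/AA against 1205728 ± 11966 (SD, n = 3 each), so the expressed form and its amount cannot be told apart in any comparison here. Of the genes that mark mating type a, STE2, BAR1 and STE6 were at 5416 to 17474 scaled counts and the very short MFA1 and MFA2 at 0.940 to 16.3. Of the alpha-specific genes, STE3 was at 375 to 525, SAG1 at 1233 to 1567, MF(ALPHA)1 at 46.0 to 76.5 and MF(ALPHA)2 at 0 to 2.01. Of the mating type a list 4 of 6 fell, with AGA2, a subunit of the a-agglutinin, no longer called with equal column totals (adjusted p = 0.0813). Of the alpha list 2 of 4 rose, of which STE3 was not called under quantile normalization.

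**Figure D1:**
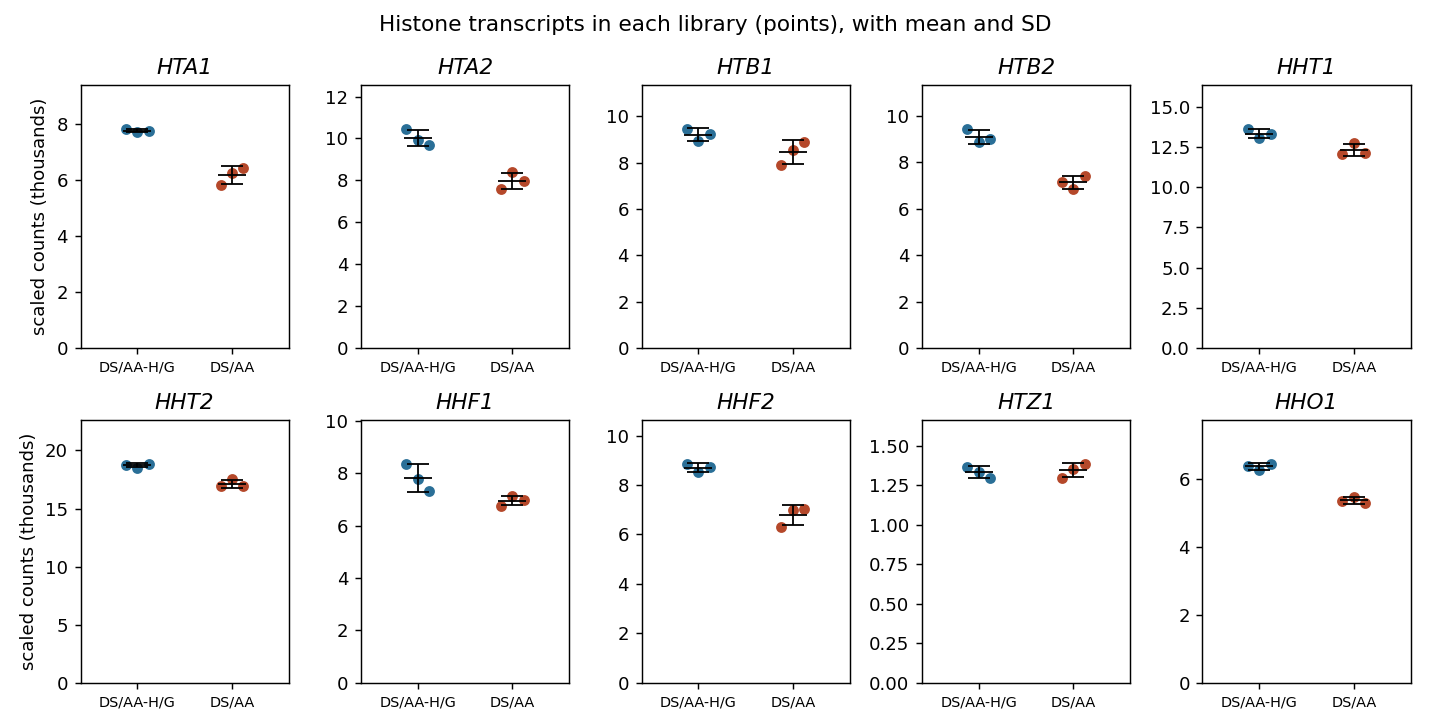
Scaled estimated counts (divided by 1000, linear axis from 0, its range set for each gene) of the 10 histone transcripts in the 3 DS/AA-H/G and 3 DS/AA libraries, with points for libraries and bars for mean and SD. The groups do not overlap for the 8 core genes and HHO1, and they overlap for HTZ1.

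HTA1 and HTA2 encode nearly identical H2A proteins. HTA1 (YDR225W, chromosome IV, 915530 to 915928, plus strand) had 5796, 6246 and 6428 scaled counts in DS/AA, against 7813, 7696 and 7747 for DS/AA-H/G. Every DS/AA library was below every DS/AA-H/G library, and the difference was several times the spread within groups. The means were 6157 ± 325 and 7752 ± 58.8 (SD, n = 3 each), and the change was -0.33 ± 0.04 on the log2 scale (SE), limma adjusted p = 4.59e-05. HTA2 (YBL003C, chromosome II, 235394 to 235792, minus strand) had 7594, 8381 and 7975 against 10462, 9946 and 9673. The groups were again apart, and the change was -0.33 ± 0.04 (limma adjusted p = 8.25e-05).

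Of the H2B genes, HTB2 fell clearly and HTB1 was at the edge of the test. HTB2 (YBL002W, chromosome II, 236492 to 236887, plus strand) had 7150, 6845 and 7395 in DS/AA against 9441, 8856 and 8982 for DS/AA-H/G. Its change was -0.35 ± 0.04 (limma adjusted p = 2.36e-05), and the lowest DS/AA-H/G library was well above the highest DS/AA library. HTB1 (YDR224C, chromosome IV, 914317 to 914712, minus strand) had 7919, 8564 and 8905 against 9465, 8925 and 9239. The highest DS/AA library nearly reached the lowest DS/AA-H/G library, at a change of -0.12 ± 0.04 (limma adjusted p = 0.0451). Without DS/AA replicate 1 the change was -0.08 and was not called (adjusted p = 0.140).

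The H3 genes were the most abundant members per length, and both fell slightly. HHT2 (YNL031C, chromosome XIV, 575640 to 576050, minus strand) had 16922, 17536 and 16973 in DS/AA against 18785, 18520 and 18869 for DS/AA-H/G. HHT1 (YBR010W, chromosome II, 256331 to 256741, plus strand) had 12088, 12729 and 12126 against 13636, 13079 and 13304. The groups of both genes were apart, by a gap that was small beside their level. The changes were -0.13 ± 0.03 for HHT2 (limma adjusted p = 0.00576) and -0.12 ± 0.03 for HHT1 (limma adjusted p = 0.0179).

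Both H4 genes fell, with the larger change in HHF2, and the difference between the copies was not tested. HHF2 (YNL030W, chromosome XIV, 576727 to 577038, plus strand) had 6303, 7004 and 7041 in DS/AA against 8867, 8511 and 8730 for DS/AA-H/G, a change of -0.36 ± 0.05 (limma adjusted p = 4.91e-05). HHF1 (YBR009C, chromosome II, 255373 to 255684, minus strand) had 6755, 7132 and 6976 against 8363, 7767 and 7308. The DS/AA-H/G libraries of HHF1 were the more scattered, the lowest of them just above the DS/AA libraries. Its change was -0.17 ± 0.05 (limma adjusted p = 0.0151).

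HTZ1 did not pass the test, and HHO1 fell. HTZ1 (YOL012C, chromosome XV, 303579 to 303983, minus strand) had 1298, 1354 and 1389 in DS/AA against 1369, 1338 and 1299 for DS/AA-H/G. The groups overlapped throughout, and the change was 0.01 ± 0.05 (limma adjusted p = 0.859, 95% interval -0.09 to 0.12), or -0.07 and not called under quantile normalization. HHO1 (YPL127C, chromosome XVI, 308828 to 309604, minus strand) had 5341, 5472 and 5281 against 6377, 6261 and 6447. Its groups were far apart for their spread, at -0.25 ± 0.03 (limma adjusted p = 0.000116). The exact two-sided permutation test gave p = 0.1 for each of the 8 core genes and HHO1, the smallest that 3 against 3 libraries allow, and 0.8 for HTZ1. Groups did not overlap, with DS/AA lower, for 8 of 8 core genes and for 25.0% of all tested genes.

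The larger falls held under every processing tried, and the smaller ones did not. HTA1, HTA2, HTB2, HHF2 and HHO1 were called in all 14 alternatives. Under quantile normalization 5 core genes fell, and 28.7% of all genes. With columns scaled to equal totals, 4 core genes fell and none rose, while HHT1 stood at -0.06, HHT2 and HTB1 at -0.07 and HHF1 at -0.11, and 12.1% of all genes fell. With equal totals computed without CIT1, whose counts differed between groups, 6 core genes and 990 of all 6197 genes fell. Without DS/AA-H/G replicate 4 the count of core genes that fell went from 8 to 5. Over all genes, 1001 of 6172 tested then fell, against 1222 of 6197 with all libraries. In the authors' deposited table all 8 core genes and HHO1 had q under 0.05 and HTZ1 had a q of 0.909, with 41.5% of rows marked.

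**Figure D2:**
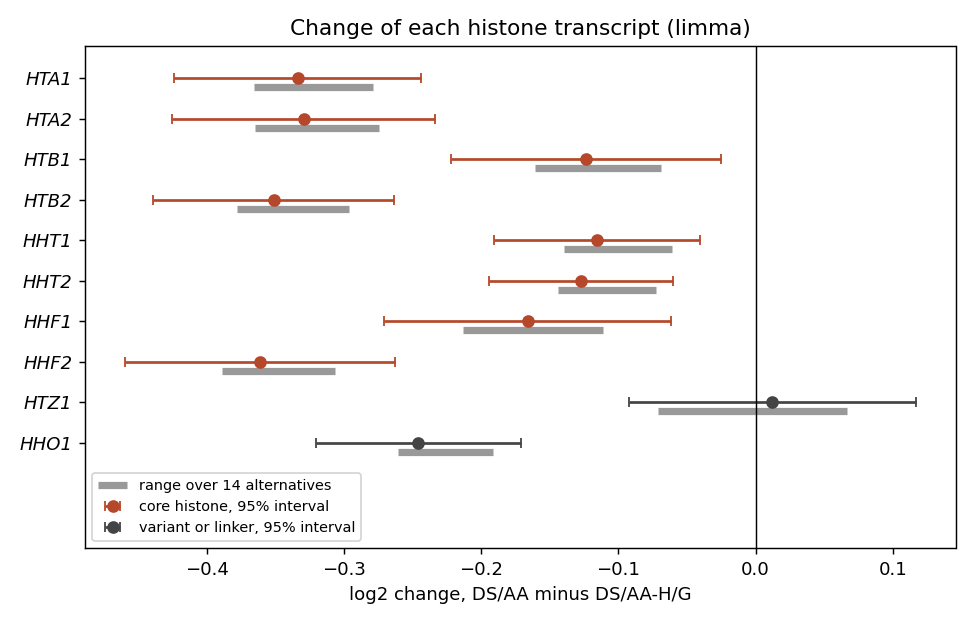
Log2 change (DS/AA minus DS/AA-H/G) of each histone transcript, with limma's 95% interval (points and whiskers) and the range of the change over 14 alternative settings (grey bars). HTA1, HTA2, HTB2, HHF2 and HHO1 stay at or below -0.19, the other core genes reach up to -0.06, and HTZ1 spans 0.

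By the estimated counts, partners that share a region did not move alike in each pair. The log2 ratio of HTA1 to HTB1 was -0.45, -0.46 and -0.47 in DS/AA, against -0.28, -0.21 and -0.25, so HTA1 was lower relative to its partner in every DS/AA library. The ratio of HHT2 to HHF2 was 1.42, 1.32 and 1.27 against 1.08, 1.12 and 1.11, so HHF2 was lower relative to HHT2. The ratios of HTA2 to HTB2, at 0.16 ± 0.11 and 0.14 ± 0.03 (SD, n = 3 each), and of HHT1 to HHF1, at 0.82 ± 0.02 and 0.77 ± 0.08, overlapped between groups. These ratios are descriptions of chosen genes and were not tested. They also depend on how reads were divided between the copies of a histone type, and HTB1 was called in 5 of 14 alternatives.

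The copies of a histone type are similar enough that estimated counts could divide reads between them, so the change of each copy is uncertain. The starts of the H3 and H4 coding sequences (60 bases each, from the start codon, read from the RefSeq genome) show how few bases tell the copies apart, with capitals at the bases that differ between copies.
HHT1: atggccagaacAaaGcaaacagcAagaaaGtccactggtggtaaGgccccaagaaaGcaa
HHT2: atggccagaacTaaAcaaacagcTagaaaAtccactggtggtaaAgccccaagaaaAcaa
HHF1: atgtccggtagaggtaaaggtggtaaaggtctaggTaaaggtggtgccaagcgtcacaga
HHF2: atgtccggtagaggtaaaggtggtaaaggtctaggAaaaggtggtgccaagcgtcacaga
HHF1 and HHF2 differ at 8 of 312 coding bases, all at the third base of a codon, and share a run of 80 identical bases. HHT1 and HHT2 differ at 28 of 411, HTA1 and HTA2 at 25 of 399, and HTB1 and HTB2 at 48 of 396. The longest identical runs of these pairs are 74, 65 and 35 bases, so the H2B copies are the least alike. The identity of the coding sequences was thus 97.4% for H4, 93.2% for H3, 93.7% for H2A and 87.9% for H2B.

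A sum over both copies does not depend on how reads were divided between them. Summed H2A counts were 13390, 14627 and 14403 in DS/AA against 18275, 17642 and 17420 for DS/AA-H/G, 20.5% lower. Summed H2B was 14.8% lower (15593 ± 635 against 18303 ± 566, SD, n = 3 each) and summed H4 16.8% lower (13737 ± 591 against 16515 ± 631). Summed H3 was 8.13% lower, at 29458 ± 700 against 32064 ± 422, a log2 difference of -0.12 that was -0.07 with equal column totals. The groups were apart for each of the 4 sums, as they must be when they are apart for both copies. H3 differed least. All 8 core genes together made 0.237% ± 0.00712 of the total signal in DS/AA against 0.265% ± 0.00721 for DS/AA-H/G.

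The share of each copy in its sum overlapped between groups for H2A and H3. HTA1 made 43.5% ± 0.990 of H2A counts in DS/AA against 43.6% ± 0.860 for DS/AA-H/G (SD, n = 3 each), and HHT1 made 41.8% ± 0.224 and 41.6% ± 0.398 of H3 counts. HTB1 made 52.5%, 55.6% and 54.6% of H2B counts in DS/AA against 50.1%, 50.2% and 50.7%. HHF1 made 51.7%, 50.5% and 49.8% of H4 counts against 48.5%, 47.7% and 45.6%. In H2B and H4 the groups did not overlap. The copy that fell less had a larger share in DS/AA than in DS/AA-H/G, which follows from the changes of the copies and is no further result.

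Per kilobase of coding length, the order of the members was led by H3 in both groups. In DS/AA-H/G, HHT2 stood at 45558 ± 443 scaled counts per kilobase and HHT1 at 32457 ± 683, followed by HHF2 at 27893 ± 576. HTA2, HHF1, HTB1 and HTB2 came next, at 25130 to 22962, where each overlapped its neighbour in the order, and HTA1 stood apart below them at 19429 ± 147. In DS/AA, HHF2 moved to 21739 ± 1333 and overlapped HHF1 and HTB1, its neighbours in the order. HHO1 stood at 8187 ± 120 in DS/AA-H/G and 6904 ± 126 in DS/AA, and HTZ1 was lowest at 3297 ± 87.6 and 3326 ± 114. Over all 6416 rows ranked per kilobase of each row's span, HHT2 ranked 82, HTA1, the lowest core gene, 264, HHO1 575 and HTZ1 1391. A span includes any intron, so genes with introns rank lower here than they would by coding length.

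Set against the mean of the core genes within each library, HHO1 stood at a like distance in both groups and HTZ1 was nearer in DS/AA. This mean joins core genes with changes from -0.12 to -0.36, and HHO1 was at -0.25. The like distance of HHO1 thus holds for the mean and not for each core gene. The mean log2 level of the core genes exceeded that of HTZ1 by 2.67, 2.69 and 2.65 in DS/AA against 2.93, 2.90 and 2.94 for DS/AA-H/G, a difference of -0.25. It exceeded that of HHO1 by 0.63, 0.68 and 0.73 against 0.71, 0.67 and 0.63, a difference of 0.01, and these groups overlapped. H2A alone stood above its variant HTZ1 by 2.38 ± 0.03 in DS/AA against 2.72 ± 0.01 for DS/AA-H/G (SD, n = 3 each). CSE4, the centromeric H3 variant gene, went the other way from the core genes, with 1113, 1027 and 1072 scaled counts against 921, 930 and 936. It rose by 0.20 ± 0.05 (limma adjusted p = 0.00793), but by 0.10 and not called under quantile normalization (adjusted p = 0.138). No p is given for the ratios, which are scores over chosen genes.

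**Figure D3:**
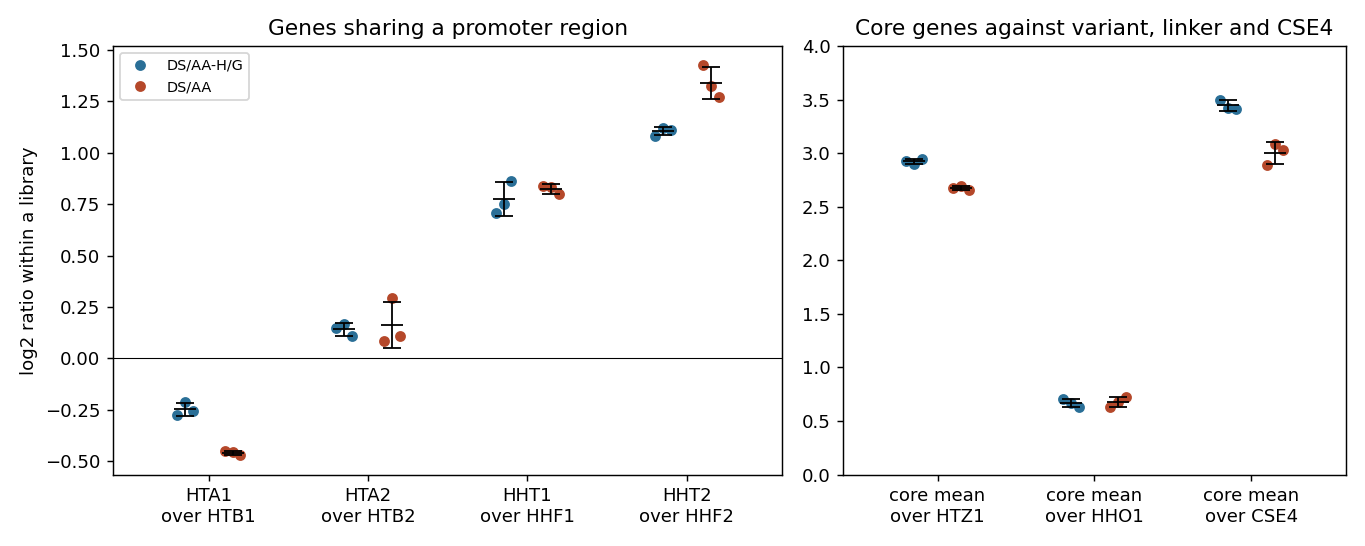
Log2 ratios within each library (points) with mean and SD for 3 DS/AA-H/G and 3 DS/AA libraries, on the left for genes that share a promoter region and on the right for the mean of the core genes over HTZ1, HHO1 and CSE4. The groups are apart for HTA1 over HTB1, HHT2 over HHF2, and the core mean over HTZ1 and CSE4, and they overlap for the others.

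Most regulators of the histone genes were not called. The counts of this and the following lists are to be read against all tested genes, of which 19.7% fell and 22.1% rose as deposited, 12.1% and 29.7% with equal column totals, and 28.7% and 16.7% under quantile normalization. Of 17 listed genes 4 fell and 0 rose (median -0.03), but with equal column totals 1 fell and 3 rose (median 0.02), shares near those of all genes or below them. HIR2, of the HIR repressor complex, fell by 0.18 and was called under each of the 4 scalings. RSC8 and STH1, of the RSC remodeller, stood at -0.11 and -0.10 and were called only with the deposited scaling. SPT10 had 1839, 1814 and 1913 scaled counts against 1701, 1760 and 1749, a change of 0.09 that did not pass (limma adjusted p = 0.0932), though it rose with equal column totals (0.15, adjusted p = 0.0132). SPT21, which works with Spt10 at HTA2-HTB2 and HHT2-HHF2, stood at -0.16 (limma adjusted p = 0.0555) and was called under quantile normalization alone (-0.21, adjusted p = 0.0177). SPT10 and SPT21 are named because of the printed elements, a choice made with their values known.

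Of 20 histone chaperone genes 4 fell and 0 rose (median -0.03), and with equal column totals 2 fell and 4 rose (median 0.03). Under quantile normalization 7 fell and 1 rose (median -0.07). VPS75, a chaperone that acts with the H3 acetyltransferase Rtt109, fell from 2298 ± 140 to 1880 ± 125 (SD, n = 3 each), by 0.29 on the log2 scale (limma adjusted p = 0.00196). HIR2 and several others of this list were also counted among the regulators. SPT6, an elongation factor that reassembles nucleosomes, stood at -0.15, not called with equal column totals. Of 18 SWR1 and INO80 genes, whose complexes exchange H2A.Z and slide nucleosomes, 2 rose and 2 fell (median 0.02), or 5 and 1 with equal column totals. IES6 of INO80 rose by 0.32 and RVB2, an ATPase of both complexes, fell by 0.17, while SWR1 itself was at -0.03 and was not called. RVB1, the partner of RVB2, stood at -0.12 and was called only with the deposited scaling.

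Most histone modifier genes were not called. Of 17 acetylation and deacetylation genes 2 rose and 3 fell (median -0.07), but 2 and 9 under quantile normalization and 4 and 2 with equal column totals. EPL1, of the NuA4 acetyltransferase, rose by 0.43 and HAT1, which acetylates new H4, by 0.27, while HST3, a deacetylase of newly placed H3, fell by 0.21. Of 14 methylation and H2B ubiquitination genes 1 rose and 4 fell (median -0.05), or 2 and 2 with equal column totals. SET2, an H3 methyltransferase, fell from 3798 ± 65.3 to 3020 ± 112 (SD, n = 3 each, limma adjusted p = 3.48e-05), UBP10, which removes ubiquitin from H2B, fell by 0.19, and DOT1 stood at -0.19, not called with equal column totals. In 8 genes tied to the breakdown of excess histones UBC5, a ubiquitin-conjugating enzyme, rose by 0.55 and HEL2 stood at -0.12, not called with equal column totals. Of the 3 genes around the centromeric histone, CSE4 rose, other than under quantile normalization, and the other two were not called.

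Most of the listed genes of each cell cycle phase fell along with the core histones. Of 18 G1/S genes 12 fell and 0 rose (median -0.14), with CLN2, a G1 cyclin, at -0.44, POL30, the sliding clamp of replication, at -0.35 and RNR1, of ribonucleotide reductase, at -0.23, and their summed level was 66121 to 69505 in DS/AA, below the 76937 to 77325 of DS/AA-H/G. With equal column totals 8 fell and 1 rose. Of 11 G2/M genes 9 fell and 0 rose (median -0.18), among them the cyclin CLB2 at -0.33, CDC20 at -0.33 and BUD4 at -0.20, with summed levels of 45065 to 46777 and 50435 to 53053. Of 10 M/G1 genes 9 fell and 0 rose (median -0.30), among them the daughter cell wall genes DSE2 at -0.79, EGT2 at -0.64 and DSE1 at -0.92, with summed levels of 98627 to 100024 and 141309 to 152051. The part of cell cycle phase in the histone result was not tested.

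**Figure D4:**
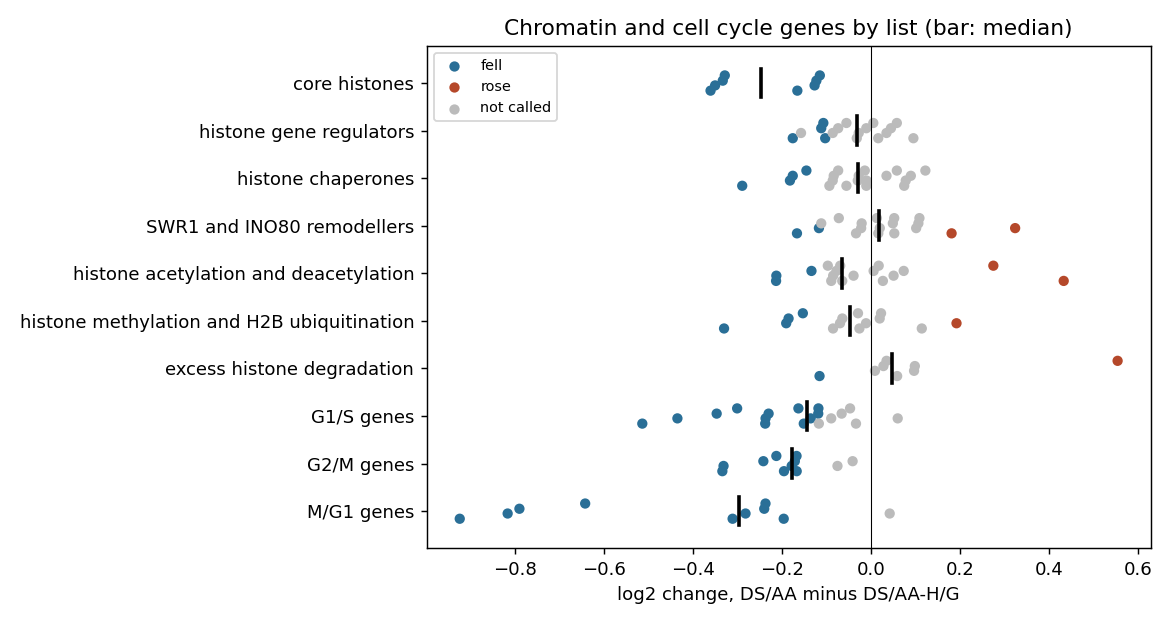
Log2 change (DS/AA minus DS/AA-H/G) of each gene in 10 lists, 1 point a gene, coloured by whether it fell, rose or was not called, with the list's median as a bar. The core histone median is -0.25, the chromatin lists have medians between -0.07 and 0.05, and the 3 cell cycle lists between -0.30 and -0.14.

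Of the 8 nearest genes on either side of the 4 loci, 6 were not called, with changes of -0.08 to 0.06, and 2 rose. KTR5, beside HHF2, was called lower under quantile normalization (-0.11, adjusted p = 0.0469), but not under the other 3 scalings. CRF1, beside HTB1, encodes a corepressor of ribosomal protein genes and rose by 1.08, and ECM15, beside HTB2, rose by 0.36. Beside HTZ1, HRD1 stood at -0.16, and beside HHO1, TBF1 stood at -0.15, both not called with equal column totals. PLB3 and NAN1, on their other sides, were not called. The median change of all genes on a chromosome was between -0.05 and 0.06, and no other row of the table overlapped a histone gene.

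The 5 genes whose levels over the 6 libraries were most like the core mean were RPL33B and RPS21B, which encode ribosomal proteins, RPN12, of the proteasome's regulatory particle, HIT1, of snoRNP assembly, and ILM1. Their Pearson r with the core mean was 0.992 to 0.996 over 6 libraries, and 534 of the 5086 genes compared had an r over 0.9. The libraries fall into 2 groups, so this r is a description of likeness and carries no test. Each core gene had an r of 0.860 to 0.989 with the mean of the other 7, HHO1 had 0.958 with the core mean and HTZ1 0.0782. RPL33B and RPS21B fell by 0.38 and 0.32. HIT1, at -0.17, was not called, but stood at -0.42 and was called under quantile normalization (adjusted p = 0.000478). ILM1 at -0.18 and RPN12 at -0.10 fell, and neither was called with equal column totals.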

How the data were processed

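RNA-seq of 6 yeast samples was analysed from the deposited table of 6416 transcripts. The tools named per the submitters' processing notes are Salmon 1.2.1, cutadapt 1.18, R 3.5.1 and bcl2fastq 2, and the build is R64. Their settings and order are not stated. Per the labels' protocols, libraries came from a kit that marks the strand. The sample columns hold a signal, which the authors derived from estimated read counts divided by a scaling factor per library, as read from the values: of values under 10 steps, 93.6% to 96.4% were whole multiples of a step of 0.940 to 1.05 within 0.01, but 36.1% to 44.4% of all, so no count model was used. The authors also deposited log2 ratios, p-values and q-values, a score that ranks the genes, and a flag where q was under 0.05. The test behind them is not stated.

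Genes with at least 1 in at least 3 samples were tested on log2(value + 1) with limma 3.58.1 (R 4.3.3, trend, robust), adjusted over all 6197. The groups share no replicate number. The design named this test for normalized values. The scripts were tested on simulated data. The coordinates match R64: 99.9% of protein-coding rows began with ATG in the RefSeq genome, and all 10 histone rows had RefSeq's start and end. Lengths are the spans of the rows, which are coding lengths for the histones. Sequences come from the RefSeq genome of R64.

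Members and lists were chosen with earlier results of these data known, so no p was adjusted over a list. Named genes were the histones, CSE4, CIT1, up to 3 called genes with the smallest p per list, the nearest genes beside each locus, and the 5 genes at 10 CPM or more most like the core mean. SPT10, SPT21, SWR1, AGA2 and the mating pheromone genes fall outside this rule and were named with their values known. Intervals cover the spread between libraries. Alternatives changed the pseudocount, filter, scaling and variance model, or left out each library.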

Additional observations from a re-analysis of the deposited data

How the results depend on the processing

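HTA1, HTA2, HTB2, HHF2 and HHO1 were called in all 14 alternatives, HHT2 in 12, HHT1 and HHF1 in 9 each and HTB1 in 5, and no core gene was called higher in any. The count of core genes that fell was 8 as deposited and 5 under quantile normalization. It was 4 with equal column totals and 6 with equal totals computed without CIT1. It was 5 with limma without trend and robust moderation, and 5 to 7 when each library was left out in turn. Of all genes, 964 of 6197 fell without trend and robust moderation, and 903 to 1259 fell when each library was left out. SPT6, DOT1, HRD1, TBF1 and ILM1, not called with equal column totals, were called lower when CIT1 was left out of the totals. AGA2, HEL2 and RPN12 were still not called. HTZ1 changed sign without being called, to -0.0710 under quantile normalization, and ranged from -0.0100 to 0.0389 over the libraries left out. With equal column totals the summed H2A, H2B and H3 differences were -0.28, -0.18 and -0.0677 on the log2 scale, against -0.33, -0.23 and -0.12 as deposited. Over all genes, 1222 fell and 1368 rose as deposited (47.2% lower among calls), 747 and 1841 with equal column totals (28.9%), and 1778 and 1034 under quantile normalization (63.2%). The median change of all genes was within 0.1 of 0 under each scaling. No paired analysis was possible because the groups share no replicate number. The members had 1239 or more estimated reads in every library, with the fewest for HTZ1. The HTZ1 interval of -0.09 to 0.12 gives the changes that fit these libraries with the deposited scaling. It is not a limit of detection.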
